A study of Mus musculus with 10 samples.

Results

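Goblet cells secrete the mucus that covers the intestinal epithelium, and 10 genes of this mucus programme were followed here out of the 31053 genes counted in each library. They were chosen by name, with earlier results of these data known: Muc2, Tff3, Clca1, Fcgbp, Zg16, Agr2, Spdef, Spink4, Retnlb and Clca4b. They were read in 10 mouse libraries of single-cell RNA-seq made in droplets, 8 from organoids of the small intestine and 2 from crypts of the colon. ENR-organoids (3 libraries, at passages 2, 7 and 3 in replicates 1, 2 and 3) were kept in R-Spondin 1, Noggin and EGF. Hyper-organoids (3 libraries, at passages 1, 6 and 3) grew in a medium of 8 components, which joins FGF2, EGF and conditioned medium with R-Spondin 1 to the small molecules VPA, EPZ6438, Pexmetinib, LDN193189 and GSK-3 Inhibitor XV. VPA is valproic acid, an inhibitor of histone deacetylases, and EPZ6438 blocks EZH2, which methylates histones. For the -VE-organoids (2 libraries, at passages 1 and 6) both of these were left out of the 8 components. Replicates 1 and 2 of the Hyper- and -VE-organoids were derived from ENR-organoids, whereas replicate 3 of the ENR- and Hyper-organoids came from primary crypts. Organoids came from crypts of mice aged 6 to 12 weeks of Lgr5-EGFP-IRES-creERT2 or C57BL/6 origin, and the sources used here do not say which line or how many animals stand behind each library. For the colon, 1 library was of crypts from normal mice and 1 of crypts from mice given dextran sulfate sodium (DSS), a chemical that injures the colonic epithelium. The colitis protocol of the study gave 2.5% DSS in drinking water for 5 days to female mice aged 8 weeks, and the day of sampling and any pooling of animals are not given in the sources used here.

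MUC2 is the gel-forming mucin that builds the intestinal mucus layer. It is folded with the help of AGR2, a protein disulfide isomerase of the endoplasmic reticulum, and leaves the cell with other granule proteins: the trefoil peptide TFF3, the IgG Fc-binding protein FCGBP, the metalloprotease CLCA1, the lectin-like ZG16 that binds bacterial cell walls, the Kazal-type peptidase inhibitor SPINK4 and, mainly in the colon, the resistin-like antibacterial protein RETNLB. SPDEF is an ETS-domain transcription factor that drives the maturation of goblet and Paneth cells. Clca4b belongs to the same gene family as Clca1, a family named for calcium-activated chloride channel regulators.

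In the GRCm38 annotation Muc2 (chromosome 7, 141690340 to 141754693, plus strand), Fcgbp (chromosome 7, 28071236 to 28120862, plus strand) and Zg16 (chromosome 7, 127050156 to 127087328, minus strand) share a chromosome. Tff3 (chromosome 17, 31125306 to 31129646, minus strand) and Spdef (chromosome 17, 27714352 to 27728955, minus strand) share another. Clca1 (145003817 to 145032776) and Clca4b (144910921 to 144932529) lie close together on the minus strand of chromosome 3, in a cluster of related genes, and how reads shared between such copies were counted is not given in the sources used here. Agr2 (chromosome 12, 35992907 to 36004087, plus strand), Spink4 (chromosome 4, 40920052 to 40931395, plus strand) and Retnlb (chromosome 16, 48816856 to 48818892, plus strand) lie apart from the rest. All 10 are protein-coding genes.

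Promoter sequence from RefSeq on GRCm38.p6, from 250 bases before to 50 bases after the start site, was at hand for 5 of the 10 genes (Muc2, Fcgbp, Agr2, Spdef and Clca4b). The 3 shown here belong to the genes that were called lower in Hyper-organoids over all cells, Muc2 (chr7:141690090-141690389, plus strand), Fcgbp (chr7:28070986-28071285, plus strand) and Clca4b (chr3:144932480-144932779, minus strand), each printed 5′ to 3′ along the gene. Capitals mark matches on either strand to the motif CAGCTG, to its variant CAGATG (both are E-boxes, the kind of site that ATOH1 can bind), or to TTTATG, a core form bound by CDX factors.
Muc2 promoter: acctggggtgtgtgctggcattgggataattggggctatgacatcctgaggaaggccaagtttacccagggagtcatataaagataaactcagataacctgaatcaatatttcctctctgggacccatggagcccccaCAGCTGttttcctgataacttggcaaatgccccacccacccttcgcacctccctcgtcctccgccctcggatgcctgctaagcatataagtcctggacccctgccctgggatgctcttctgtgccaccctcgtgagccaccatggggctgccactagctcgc
Fcgbp promoter: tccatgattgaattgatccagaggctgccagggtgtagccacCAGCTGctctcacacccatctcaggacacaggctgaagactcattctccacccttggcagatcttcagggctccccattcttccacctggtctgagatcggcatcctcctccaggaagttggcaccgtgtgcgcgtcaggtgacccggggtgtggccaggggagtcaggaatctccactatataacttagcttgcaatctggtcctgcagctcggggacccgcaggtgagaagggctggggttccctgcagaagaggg
Clca4b promoter: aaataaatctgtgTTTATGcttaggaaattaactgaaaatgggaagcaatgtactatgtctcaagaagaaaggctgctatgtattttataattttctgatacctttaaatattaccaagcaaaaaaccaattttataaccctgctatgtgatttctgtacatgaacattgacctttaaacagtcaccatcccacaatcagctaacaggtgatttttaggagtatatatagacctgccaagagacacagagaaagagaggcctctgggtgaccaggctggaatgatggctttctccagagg
The Muc2 and Fcgbp windows each held CAGCTG, starting 112 and 208 bases before the start site (positions -112 and -208), and the Clca4b window held TTTATG (position -237). Of the other windows, Agr2 held TTTATG on the opposite strand (position -47) and Spdef held it on the strand of the gene (position -191). None of the 5 windows held CAGATG. Among 32851 mouse promoters of this length CAGCTG stood in 16.3%, CAGATG in 17.2% and TTTATG in 11.9%, so a match in a single promoter is a description of the sequence only.

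The authors kept 25204 cells and gave each organoid cell a class. The organoid libraries held 1983 to 4293 kept cells and 89124015 to 170019527 UMIs (unique molecular identifiers, one per captured transcript), and at most 5 cell barcodes were shared by any pair of libraries. The goblet class held 107 to 379 cells and 3432039 to 12525919 UMIs per library, with a median of 24335 to 36619 UMIs per cell. Levels are given as CPM, UMIs of a gene per 1e+06 UMIs of the same cells, and a value of 0 in a library allows a level of up to 3 UMIs. Cells of one library are not replicates, so all comparisons were made on sums per library. Nothing states that the libraries of a group came from separate animals, and the p-values therefore measure the spread between these cultures.

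The goblet class made up 4.89%, 5.65% and 5.32% of kept cells in ENR-organoids (95% exact binomial intervals 4.02% to 5.88%, 4.80% to 6.61%, and 4.45% to 6.31%), 7.24% and 8.83% of those in -VE-organoids, and 5.62%, 5.82% and 6.61% of those in Hyper-organoids. Hyper-organoids averaged 0.727 percentage points more than ENR-organoids, with overlapping libraries, and the exact two-sided permutation test gave p = 0.2, where 3 libraries against 3 can go no lower than 0.1. Hyper-organoids were higher in 3 of 3 pairs of the same culture series, which was read from the number or letter that library names share. The labels do not say what it marks. The exact two-sided paired permutation test gave p = 0.25, the smallest that 3 pairs allow, a test added after the data had been seen. When goblet cells were instead taken as cells with at least 3 UMIs of each of at least 3 of the 4 genes that the study named the class by (Agr2, Tff3, Muc2 and Fcgbp), the difference turned to -0.885 points, given without a test because this rule picks cells by genes whose levels differed between the groups. Within the annotated class the summed level of stromal markers was 0 to 1.26 CPM and that of leukocyte markers 0 to 3.28 CPM, whereas the summed Paneth cell markers reached 3386 to 3933 CPM in ENR-organoids, 8828 and 12850 CPM in -VE-organoids and 7832, 3518 and 4385 CPM in Hyper-organoids. The summed enterocyte markers stood at 185 to 332 CPM in ENR-organoids, 108 and 109 CPM in -VE-organoids and 21.6 to 45.2 CPM in Hyper-organoids, and those of enterocyte progenitors at 462 to 571 CPM, 338 and 461 CPM, and 265 to 280.3 CPM. Enteroendocrine markers went the other way, at 24.1 to 32.4 CPM, 31.5 and 40.4 CPM, and 93.2 to 133 CPM. The part of the transcripts of these classes in the values below was not tested.

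The genes fell into patterns across the cell classes, which are given as a description because the classes were drawn from the same cells. Muc2, Tff3 and Spink4 were carried by both secretory classes. The median of Muc2 over libraries was 645 CPM in Paneth cells (254 to 942 CPM) and 630 CPM in goblet cells (106 to 1186 CPM), and that of Tff3 was 12118 CPM and 11919 CPM, with ranges that overlapped for both. These medians pool the groups, and those of Paneth cells rest on the 6 libraries with at least 10 such cells, 5 of them from ENR- and -VE-organoids. Within ENR-organoids Muc2 averaged 787 CPM in Paneth cells and 936 CPM in goblet cells, again with overlap. Spink4 was higher in Paneth cells, at 30921 to 47211 CPM over the 6 libraries with at least 10 such cells, than in goblet cells, at 13590 to 21131 CPM, without overlap. Agr2 was in the opposite order, at 2255 to 5345 CPM in goblet cells and 1349 to 2133 CPM in Paneth cells. Fcgbp and Spdef also had their highest medians in goblet cells (2658 CPM and 116 CPM), ahead of Paneth cells (654 CPM and 69.9 CPM), although the ranges of the 2 classes overlapped. Zg16 and Clca1 had their highest medians in the goblet class by a wide margin, with medians of 1530 CPM and 109 CPM against 32.6 CPM and 4.20 CPM in Paneth cells. After these the enteroendocrine class had the highest medians of Tff3 (1556 to 6548 CPM), Spink4 (363 to 4712 CPM) and Fcgbp (249 to 482 CPM), each far above the stem class.

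Clca4b stood apart from the other genes. In ENR-organoids it stood highest in enterocytes, at 130 to 204 CPM, and in stem cells, at 100.3 to 141 CPM, which overlapped, followed without overlap by transit amplifying cells, at 63.8 to 84.2 CPM. Enterocyte progenitors stood at 37.5 to 52.5 CPM, goblet cells at 22.1 to 37.0 CPM, Paneth cells at 12.8 to 28.9 CPM and enteroendocrine cells at 1.55 to 21.8 CPM, of which neighbouring classes overlapped from goblet cells downward. The goblet class held 0.503% to 2.90% of the Clca4b UMIs of a library, against 81.3% to 93.9% for Muc2 and 83.2% to 100% for Clca1. Over 53 sums of a library and class with at least 10 cells, Clca4b correlated with the other 8 measured genes between -0.47 and 0.20, while Muc2 correlated with Spink4 at 0.953 and with Tff3 at 0.926. Such sums share libraries and classes, and these are correlations across sums, not across independent samples.

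**Figure D1:**
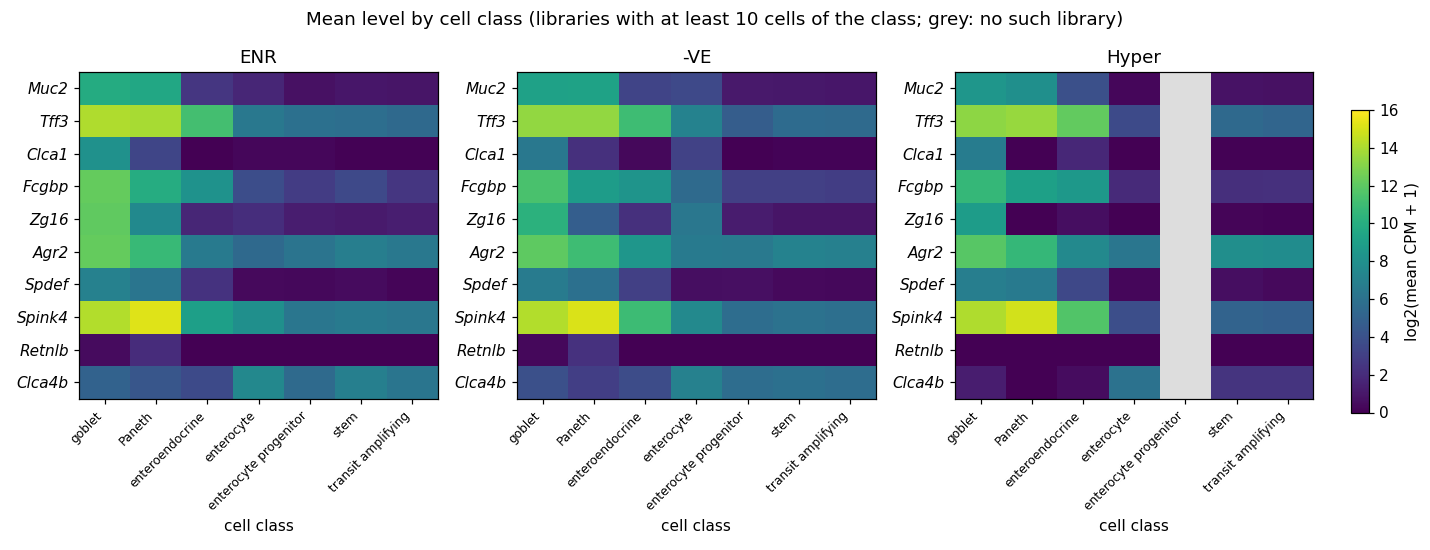
Mean level of each gene by cell class in ENR-, -VE- and Hyper-organoids, as log2(mean CPM + 1) over the libraries with at least 10 cells of the class; grey marks classes with no such library. Muc2, Tff3, Agr2, Spdef and Spink4 are brightest in the goblet and Paneth columns, Clca4b is spread over the absorptive and proliferating columns, and Retnlb is near 0 throughout.

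Retnlb was hardly read in the organoids. ENR-organoids held 6, 2 and 3 UMIs of it in replicates 1, 2 and 3, -VE-organoids 11 and 1, and the 3 Hyper-organoid libraries 0. With so few UMIs no fold change is given and the gene did not pass the filter on low counts, so 9 of the 10 genes were tested.

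Over all kept cells, Hyper-organoids were compared with ENR-organoids to ask how the 8-component medium changed the genes. A gene was called when edgeR's quasi-likelihood test gave a Benjamini-Hochberg adjusted p under 0.05 over all genes tested and the change was at least 2-fold. By this rule 3 of the 9 genes were lower in Hyper-organoids (Muc2, Fcgbp and Clca4b) and 0 were higher, where 22.9% of the 16037 genes tested were called, 18.2% higher and 4.75% lower. The groups' own composition differed as well, since Paneth cells numbered 32, 40 and 54 in ENR-organoids and 10, 2 and 2 in Hyper-organoids, and enterocytes 214, 340 and 292 against 7, 58 and 21. Enterocyte progenitors numbered 486, 635 and 809 in ENR-organoids and 3, 3 and 2 in Hyper-organoids. In sums over all cells, fewer cells of a class and less RNA per cell cannot be told apart.

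Clca4b stood at 80.3, 91.0 and 61.2 CPM in ENR-organoids (mean 77.5 ± 15.1, SD, n = 3), 58.6 and 48.3 CPM in -VE-organoids and 4.44, 5.60 and 4.20 CPM in Hyper-organoids (4.75 ± 0.749, n = 3). The Hyper-organoid libraries lay close together and far below every other library. The log2 fold change was -4.15 (SE 0.17, edgeR adjusted p = 1.58e-06), and it stayed between -4.28 and -4.02 when any one library was left out.

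Fcgbp stood at 208, 185 and 217 CPM in ENR-organoids (203 ± 16.3, n = 3), 190 and 176 CPM in -VE-organoids and 53.0, 89.4 and 117 CPM in Hyper-organoids (86.4 ± 31.9, n = 3). No Hyper-organoid library overlapped with the others, and the lowest was replicate 1. The log2 fold change was -1.36 (SE 0.25, edgeR adjusted p = 0.00187) and -1.10 without Hyper replicate 1, still called.

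Muc2 stood at 40.2, 35.9 and 52.8 CPM in ENR-organoids (43.0 ± 8.77, n = 3), 45.6 and 36.2 CPM in -VE-organoids and 5.66, 18.0 and 30.3 CPM in Hyper-organoids (18.0 ± 12.3, n = 3). Its Hyper-organoid libraries again lay below all others but spread over a wide range. The log2 fold change was -1.39 (SE 0.50, edgeR adjusted p = 0.0417). This call was narrow: without one library the adjusted p reached 0.0634 to 0.119 for each ENR replicate, 0.0608 and 0.0609 for the -VE replicates and 0.0939 for Hyper replicate 2, and without Hyper replicate 1 the change was -0.96, under 2-fold. It was also lost with only the ENR- and Hyper-organoids in the fit (adjusted p = 0.0645), with plain library sizes (0.0594) and among genes of at least 10 CPM (0.0684).

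Zg16 and Clca1 varied most between cultures. Zg16 stood at 72.9, 131 and 312 CPM in ENR-organoids, 104 and 55.1 CPM in -VE-organoids, and 1 UMI in all, 7.70 CPM and 64.0 CPM in Hyper-organoids. Clca1 stood at 4.54, 9.28 and 18.5 CPM, at 5.71 and 5.57 CPM, and at 1 UMI in all, 2.35 CPM and 14.02 CPM in the same order. In both genes replicate 3 was the highest library of the ENR- and of the Hyper-organoids, and Hyper replicate 1 was the lowest. The log2 fold changes were -3.00 (SE 1.46, edgeR adjusted p = 0.113) for Zg16 and -1.14 (SE 1.24, adjusted p = 0.463) for Clca1. With the culture series as a replicate block Zg16 was called, at -4.18 (adjusted p = 0.0212), and Clca1 was not, at -2.08 (adjusted p = 0.0904). Without Hyper replicate 3 Zg16 was called at -5.62 (adjusted p = 0.0167).

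The remaining genes did not pass. Tff3 stood at 835, 781 and 973 CPM in ENR-organoids, 844 and 840 CPM in -VE-organoids and 373, 622 and 816 CPM in Hyper-organoids, a log2 fold change of -0.64 (edgeR adjusted p = 0.0541). Spink4 stood at 1120, 997 and 1136 CPM, at 1561 and 1475 CPM and at 731, 942 and 1152 CPM (-0.33, adjusted p = 0.0937). Agr2 stood at 283, 240 and 289 CPM, at 367 and 436 CPM and at 218, 394 and 571 CPM (0.42, adjusted p = 0.255), with the Hyper-organoid libraries on both sides of the others. Spdef hardly varied, at 5.77, 5.73 and 5.97 CPM, at 7.17 and 7.35 CPM and at 6.03, 5.77 and 5.83 CPM, and its log2 fold change of -0.11 (adjusted p = 0.242) became 0.01 with plain library sizes. Plain library sizes moved the median log2 fold change of all genes from -0.01 to 0.12.

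**Figure D2:**
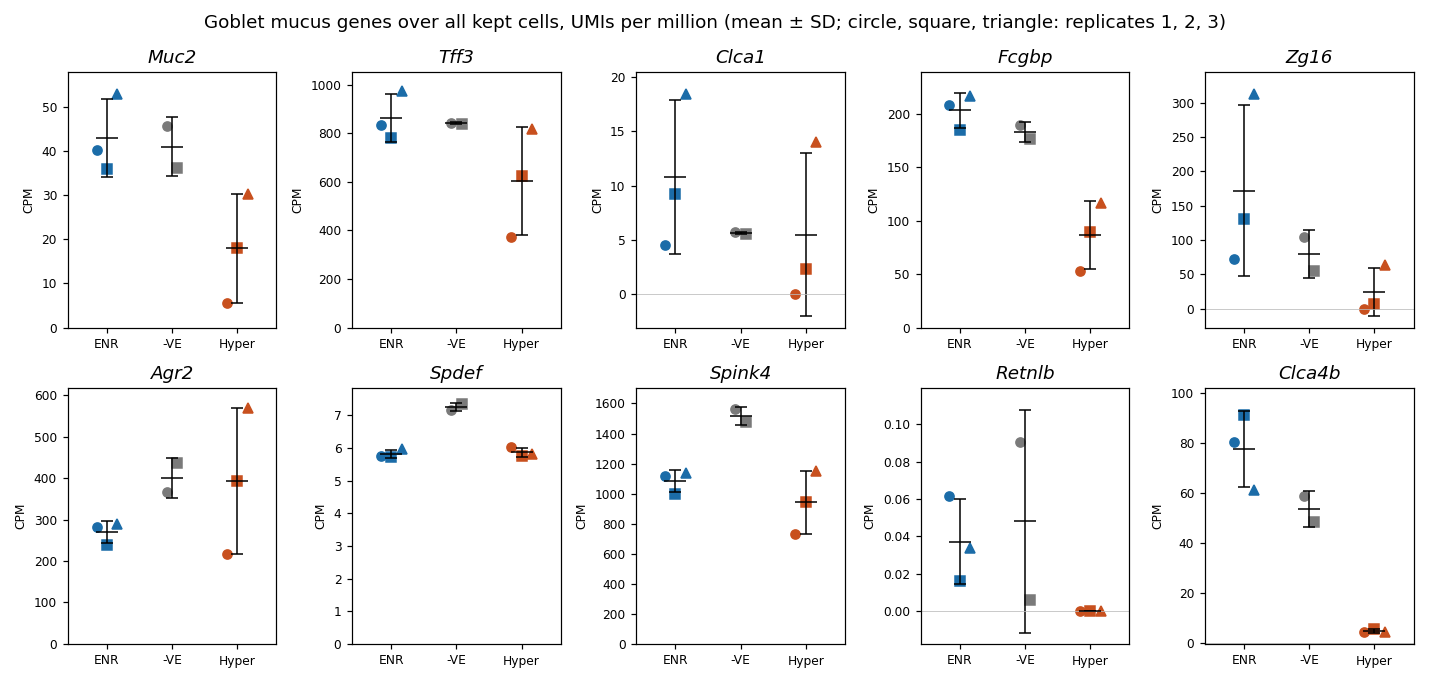
CPM of each gene over all kept cells, one point per library with the group mean and SD, with an axis from 0 for each gene. The Hyper-organoid libraries sit below all ENR- and -VE-organoid libraries for Muc2, Fcgbp and Clca4b, while Spdef keeps between 5.73 and 7.35 CPM in every library.

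To separate the effect of VPA and EPZ6438 from that of the other components, Hyper-organoids were compared with -VE-organoids. The Hyper-organoid libraries serve in both comparisons, so their values are not independent. Hyper replicate 3, from primary crypts, has no -VE library of its origin, so this comparison also holds a difference of origin. Of the 9 genes, 2 were called lower and 0 higher, where 18.6% of all genes tested were called, 16.1% higher and 2.51% lower. The log2 fold change of Clca4b was -3.63 (SE 0.18, edgeR adjusted p = 9.36e-06) and that of Fcgbp -1.22 (SE 0.27, adjusted p = 0.00671). Without Hyper replicate 1 the Fcgbp value was -0.96, under 2-fold. Muc2 had a log2 fold change of -1.33 (adjusted p = 0.0741) and Zg16 one of -1.88 (adjusted p = 0.338). Both were called with the culture series as a replicate block, which only replicates 1 and 2 share here, as given below. Spink4 (-0.82, adjusted p = 0.00461) and Spdef (-0.44, adjusted p = 0.00400) were lower by less than 2-fold.

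Between -VE- and ENR-organoids, whose media share EGF and R-Spondin 1 and differ in further components, 0 of the 9 genes were called by edgeR or by DESeq2, where edgeR called 2.55% of all genes tested, 1.35% higher and 1.20% lower. At an unadjusted p under 0.05, which 3847 of the 16037 genes had, edgeR gave 3 of them, Spdef at 0.33, Spink4 at 0.49 and Clca4b at -0.52 on the log2 scale. For the others the log2 values ran from -1.12 for Zg16 to 0.58 for Agr2.

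The goblet class was then examined by itself. Since Agr2, Tff3, Muc2 and Fcgbp served to name this class, their changes within it are given as values, without a test, and calls were counted over the other 6 genes, of which Retnlb again had too few UMIs. In Hyper- against ENR-organoids 1 of these 6 was called, Clca4b, where 13.3% of the 11714 genes tested in the class were called, 10.7% higher and 2.64% lower. Clca4b passed the filter on low counts in this class through the ENR- and -VE-organoids, where it is higher, so its call adds little weight to the count.

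Among the naming genes, Fcgbp stood at 5253, 4059 and 5216 CPM in goblet cells of ENR-organoids, 3176 and 2140.0 CPM in those of -VE-organoids and 994, 1802 and 1959 CPM in those of Hyper-organoids, a log2 fold change of -1.71 between Hyper- and ENR-organoids. Muc2 stood at 903, 719 and 1186 CPM, at 723 and 400.2 CPM and at 106, 378 and 541 CPM (-1.55). Tff3 stood at 17453.5, 14585 and 19837 CPM, at 12189 and 9358 CPM and at 6303, 11358 and 11650 CPM (-0.93). For these 3 genes every Hyper-organoid library lay below every ENR-organoid library. Agr2 stood at 5345, 3687 and 5212 CPM, at 4137 and 4098 CPM and at 2255, 3669 and 5217 CPM (-0.45), with overlap.

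Of the genes that did not name the class, Spink4 stood at 18931, 15583 and 20235 CPM in goblet cells of ENR-organoids, 21131 and 15522 CPM in those of -VE-organoids and 13590, 19127 and 19145 CPM in those of Hyper-organoids (log2 fold change of Hyper- against ENR-organoids -0.18, SE 0.16, edgeR adjusted p = 0.428). Spdef stood at 137, 116 and 134 CPM, at 113 and 89.1 CPM and at 118, 116 and 101 CPM (-0.31, adjusted p = 0.0655). Both sets of libraries overlapped. Clca4b, low in this class from the start, stood at 37.0, 36.6 and 22.1 CPM, at 14.7 and 13.4 CPM and at 1.47, 0.629 and 2.32 CPM. Its 3 groups did not overlap, and the log2 fold change was -4.60 (SE 0.31, adjusted p = 1.88e-06). The summed enterocyte markers of the class moved with it, as given above, and their part was not tested.

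Zg16 stood at 1893, 3106 and 8040 CPM in goblet cells of ENR-organoids, 1846 and 629.7 CPM in those of -VE-organoids, and 0, 169 and 1215 CPM in those of Hyper-organoids, where 0 UMIs in 6102450 left room for 3. Clca1 stood at 118, 219 and 476 CPM, at 101 and 62.9 CPM and at 0.164, 50.1 and 263 CPM. Here Hyper replicate 3 reached beyond ENR replicates 1 and 2 for Clca1 but not for Zg16. The log2 fold changes were -3.32 (edgeR adjusted p = 0.0679) for Zg16 and -1.48 (adjusted p = 0.272) for Clca1. With the culture series as a replicate block they were -4.38 (adjusted p = 0.00838) and -2.15 (adjusted p = 0.0276), so both were called in that fit. Without Hyper replicate 1 Zg16 was called too, at -2.74 (adjusted p = 0.0241), as it was in cells thinned to 10000 UMIs (-3.03, adjusted p = 0.0396). Without Hyper replicate 3, the highest of its group, both genes were called, Zg16 at -5.82 (adjusted p = 0.00910) and Clca1 at -3.55 (adjusted p = 0.0164). Leaving out the highest library of a group lowers its mean in any gene. The Zg16 levels of Hyper-organoids rest on few cells, since among thinned goblet cells it was found in 1 in replicate 2 and 4 in replicate 3.

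**Figure D3:**
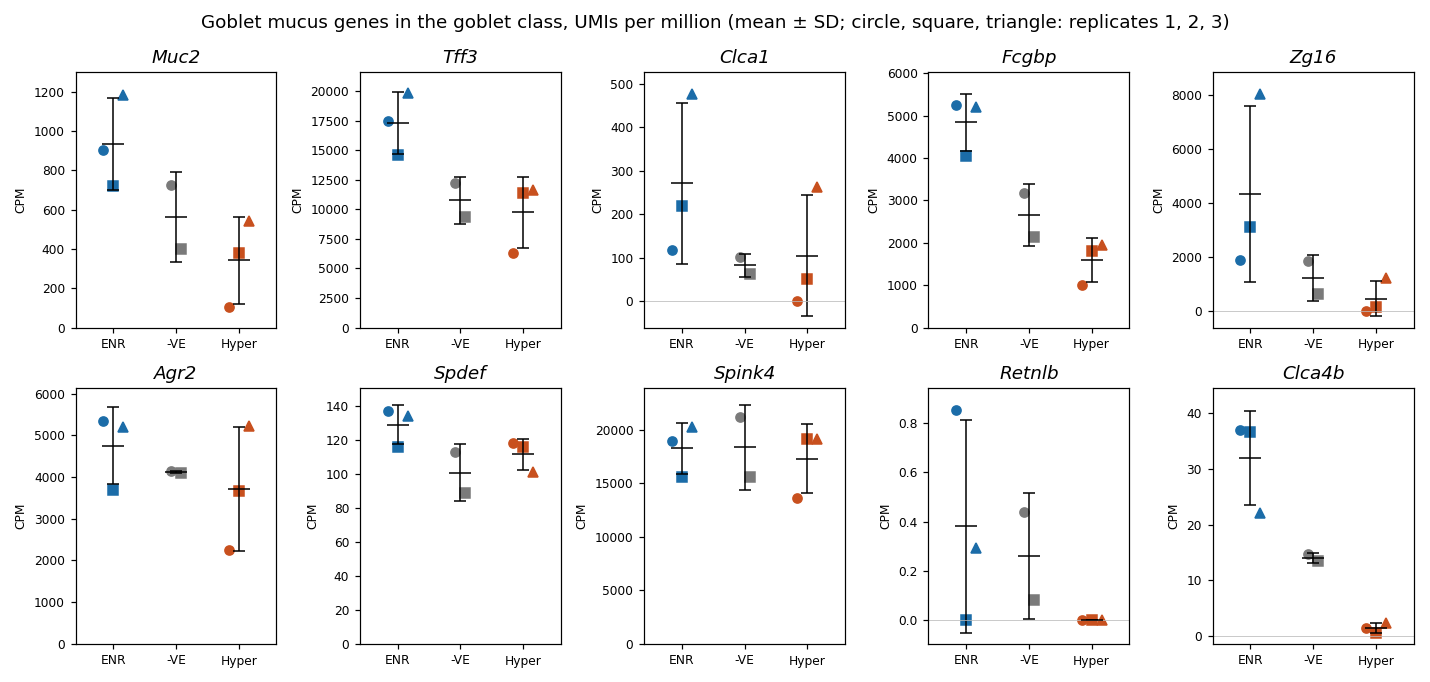
CPM of each gene within the goblet class, one point per library with the group mean and SD, with an axis from 0 for each gene. Spink4 stays between 13590 and 21131 CPM in every library, whereas Clca4b drops from 22.1 to 37.0 CPM in ENR-organoids to at most 2.32 CPM in Hyper-organoids and Zg16 spreads from 0 to 8040 CPM.

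Against -VE-organoids the goblet class of Hyper-organoids again had 1 of the 6 genes called, Clca4b at -3.35 (SE 0.34, edgeR adjusted p = 6.06e-05), where 9.87% of genes were called, 8.72% higher and 1.15% lower. Its passage of the filter through the other groups, given above, limits this call too. Zg16 was at -1.44 (adjusted p = 0.467) and Clca1 at 0.32 (adjusted p = 0.867). For Clca1, Hyper replicates 1 and 2 lay below both -VE-organoid libraries. Replicate 3, which has no -VE library of its origin, lay above them. With the culture series as a replicate block Zg16 was called, as given below. Clca4b was also the one gene called between the goblet cells of -VE- and ENR-organoids, at -1.25 (SE 0.23, adjusted p = 0.0222), where 1.14% of genes were called, 0.529% higher and 0.606% lower. The latter call was lost without ENR replicate 1 (adjusted p = 0.0908), ENR replicate 2 (0.0661), -VE replicate 1 (0.0514) or -VE replicate 2 (0.280).

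The share of goblet cells that held a gene at all was compared after each cell was thinned to 10000 UMIs, which left out 4 to 22 shallower goblet cells per library. Zg16 was found in 16.8%, 17.7% and 15.97% of goblet cells of ENR-organoids, 9.26% and 10.1% of those of -VE-organoids and 0%, 0.524% and 3.23% of those of Hyper-organoids. Clca1 was found in 14.9%, 14.9% and 18.5%, in 10.5% and 7.28%, and in 0%, 4.71% and 10.5%. In both genes every Hyper-organoid library lay below every ENR-organoid library. In the stem class, which does not make mucus, 0% to 1.90% of thinned cells held Zg16 and 0% to 0.596% held Clca1, at a median of 31294 to 43892 UMIs per cell before thinning. In Hyper-organoids themselves the stem class gave 0%, 0.137% and 0.353% for Zg16. Spink4 was found in 98.0%, 97.9% and 98.3% of goblet cells of ENR-organoids and in 85.7%, 90.1% and 95.2% of those of Hyper-organoids. In thinned stem cells it was found in 56.3%, 52.1% and 47.8% in ENR-organoids and in 24.6%, 17.2% and 13.2% in Hyper-organoids. The share outside the goblet class was thus large and also lower in Hyper-organoids, and its part in the difference was not tested. The exact two-sided permutation test gave p = 0.1 (Benjamini-Hochberg adjusted 0.15 over 6 genes) for Zg16, Clca1, Spink4 and Clca4b, which is the smallest p that 3 libraries against 3 allow.

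Zg16 and Clca1 were concentrated in a few goblet cells. The tenth of goblet cells with the most UMIs of a gene held 98.0% to 100% of the Zg16 UMIs of a library and 93.2% to 100% of the Clca1 UMIs, against 46.6% to 71.8% for Muc2 and 24.6% to 37.7% for Tff3. In thinned cells, Zg16 was found in 10 of 15, 17 of 21 and 11 of 22 Clca1-holding goblet cells of ENR-organoids and in 10 of 17 and 15 of 26 of those of -VE-organoids. Hyper-organoids had 0 Clca1-holding cells in replicate 1, while Zg16 was found in 1 of 9 in replicate 2 and 3 of 13 in replicate 3. The Clca1-holding cells together also held more Muc2, at 2903, 2893 and 4343 CPM of Muc2 against 543, 308 and 490 CPM in the other goblet cells of ENR-organoids. The same order held in -VE-organoids, at 4535 and 1445 CPM against 297 and 332 CPM, and in Hyper-organoids, at 1470 and 2195 CPM against 313 and 339 CPM in replicates 2 and 3. In Hyper replicate 1, with no such cell, Muc2 averaged 105 CPM over the thinned goblet cells.

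Outside the goblet class the genes went separate ways. With the goblet class left out, 3 of the 5 tested genes that did not name the class were called between Hyper- and ENR-organoids, where 23% of genes were called, namely Clca4b at -4.13, Zg16 at -4.61 and Spink4 at -1.75 on the log2 scale. Of the naming genes, given as values since they also decided which cells remained, Muc2 was at -2.48 and Agr2 at 1.18. These sums hold the Paneth cells, which were fewer in Hyper-organoids and which carry Muc2 and Spink4 strongly, so single classes were fitted as well, a choice made after the levels by class had been seen.

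In stem cells Clca4b stood at 114, 141 and 100.3 CPM in ENR-organoids, 59.0 and 58.2 CPM in -VE-organoids and 4.60, 3.76 and 4.47 CPM in Hyper-organoids (log2 fold change of Hyper- against ENR-organoids -4.91, edgeR adjusted p = 1.44e-07, where 18.0% of genes were called in this class). The step from ENR- to -VE-organoids, -1.02, was called too (adjusted p = 0.00929, 0.503% of genes called). In transit amplifying cells Clca4b stood at 77.3, 84.2 and 63.8 CPM, at 55.2 and 47.0 CPM and at 4.36, 4.86 and 3.66 CPM (-4.22, adjusted p = 1.90e-07, 20.9% called). In the latter class the step from ENR- to -VE-organoids was -0.55 (adjusted p = 0.0572, 1.03% called). Hyper- against -VE-organoids gave -3.89 in stem cells (16.5% of genes called) and -3.68 in transit amplifying cells (17.8%), and both were called. In enteroendocrine cells Clca4b had 2, 31 and 10 UMIs in ENR-organoids, 17 and 30 in -VE-organoids and 1 in each Hyper-organoid library, too few for a fold change, and a call against -VE-organoids there (4.01% of genes called) rests on those 3 UMIs. In enterocytes, of which Hyper-organoids held few, it stood at 188, 204 and 130 CPM, at 164 and 94.9 CPM and at 88.1 and 38.0 CPM in Hyper replicates 2 and 3. In the goblet cells of ENR-organoids Clca4b, at 22.1 to 37.0 CPM, lay below its level over all cells, 61.2 to 91.0 CPM. Barcodes that the authors did not keep held it at 1.06 to 1.62 times the CPM of the kept cells, in 10 of 10 libraries. In Hyper-organoids and normal colon these ratios rest on 46 to 65 UMIs in such barcodes, without a counting interval. The part of free RNA in its levels by class was not tested.

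Agr2 and Spink4 moved in opposite directions in proliferating cells. Agr2 stood at 106, 115 and 119 CPM in stem cells of ENR-organoids, 136 and 140.0 CPM in those of -VE-organoids and 142, 263 and 323 CPM in those of Hyper-organoids (log2 0.99, edgeR adjusted p = 0.00799, just under 2-fold), and in transit amplifying cells it rose by 1.30 (adjusted p = 0.00652). Spink4 stood at 105, 92.4 and 80.3 CPM in stem cells of ENR-organoids, 70.7 and 58.7 CPM in those of -VE-organoids and 42.0, 25.4 and 32.7 CPM in those of Hyper-organoids (-1.58, adjusted p = 7.77e-05). In transit amplifying cells Spink4 changed by -1.57 (adjusted p = 3.62e-05). Zg16 was called in both classes as well (-3.14 and -3.82), from levels of at most 1.72 CPM. In stem cells it had 1, 7 and 12 UMIs in Hyper-organoids and passed the filter on low counts through the other groups, so the call there carries little weight. Fcgbp stood at 4.96, 22.8 and 3.67 CPM in stem cells of ENR-organoids, 6.00 and 8.37 CPM in those of -VE-organoids and 4.86, 3.37 and 2.26 CPM in those of Hyper-organoids (-1.71, adjusted p = 0.0317). ENR replicate 2 alone stood high there and the rest overlapped. Free RNA from Paneth and goblet cells can reach other droplets, the number of Paneth cells was lower in the same libraries, and its part in these values was not tested.

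Enteroendocrine cells, the hormone-secreting class, went the other way for Spink4. It stood at 531, 671 and 363 CPM in ENR-organoids, 1994 and 1947 CPM in -VE-organoids and 2101, 3012 and 4712 CPM in Hyper-organoids. All Hyper-organoid libraries lay above all others, and the -VE-organoids above the ENR-organoids. The log2 fold change was 2.73 for Hyper- against ENR-organoids (SE 0.28, edgeR adjusted p = 0.000144, where 7.40% of genes were called in this class) and 2.02 for -VE- against ENR-organoids (adjusted p = 0.0203, 0.190% called), while Hyper- against -VE-organoids gave 0.71 and did not pass (adjusted p = 0.207). More than 1000 CPM of Spink4 was held by 10 of 72, 7 of 79 and 3 of 61 enteroendocrine cells of ENR-organoids, 11 of 73 and 23 of 89 of those of -VE-organoids and 24 of 97, 36 of 107 and 32 of 86 of those of Hyper-organoids. Spdef had 5 UMIs in each ENR-organoid library, 9 and 19 in the -VE-organoids and 27, 22 and 19 in the Hyper-organoids (log2 1.37). It passed the filter on low counts only through groups other than the ENR-organoids, so no test is given for it. Tff3 stood at 1556, 2545 and 3112 CPM, at 2314 and 1939.7 CPM and at 2746, 4581 and 6548 CPM (1.00, adjusted p = 0.0534), and Muc2, at 1.51 to 31.2 CPM, did not pass (1.55, adjusted p = 0.279). Doublets were not removed, and the tenth of enteroendocrine cells with the most Spink4 held 64.5% to 91.8% of its UMIs. In the remaining cells Spink4 stood at 138, 108 and 85.8 CPM in ENR-organoids, 189 and 511 CPM in -VE-organoids and 491, 1113 and 1880.1 CPM in Hyper-organoids, where every Hyper-organoid library lay above every ENR-organoid library and replicate 1 overlapped with the -VE-organoids.

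**Figure D4:**
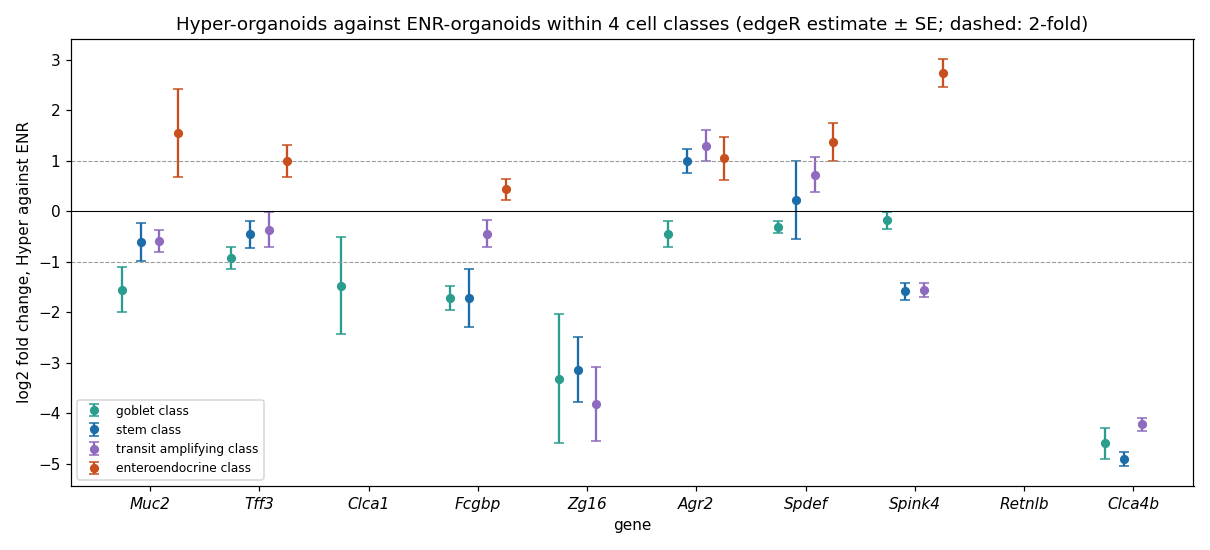
Log2 fold change of Hyper- against ENR-organoids with its standard error for each gene, fitted in the goblet, stem, transit amplifying and enteroendocrine classes; dashed lines mark 2-fold, and a gene has no point in a class where it did not pass the filter on low counts or where a group held at most 3 UMIs. Clca4b lies between -4.91 and -4.22 in the goblet, stem and transit amplifying classes, while Spink4 runs from -1.58 in stem cells to 2.73 in enteroendocrine cells.

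The difference between goblet cells and all other cells was itself tested with limma on log2 CPM. For Spink4 the change between Hyper- and ENR-organoids was 1.54 higher in the goblet class than in the rest (SE 0.28, limma adjusted p = 0.0154), where 5.51% of genes were called in this test, 1.43% higher and 4.08% lower. It was the one gene called of the 5 that could be tested and did not name the class. Against -VE-organoids the same difference was 1.54 for Spink4 and missed the threshold (adjusted p = 0.0678), where 1.55% of genes were called, 0.273% higher and 1.27% lower. For Agr2, a naming gene given as a value, the difference between Hyper- and ENR-organoids was -1.65. The goblet class accordingly held 61.1%, 64.9% and 68.6% of the Spink4 UMIs of ENR-organoids and 81.9%, 90.9% and 87.2% of those of Hyper-organoids. Paneth cells held 29.5%, 25.8% and 22.98% of them in ENR-organoids and 8.05%, 1.65% and 1.81% in Hyper-organoids. In the sums over the other cells, fewer Paneth cells and less Spink4 per cell cannot be told apart.

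Further lists of genes linked to goblet cells and mucus, chosen with earlier results of these data known, were read beside these. In the goblet class the median log2 fold change of Hyper- against ENR-organoids over all genes was 0.01. Of 28 genes for protein folding and granules, 10 were called lower and 0 higher (median -0.69), where 2.64% of all genes in the class were called lower and 10.7% higher. Over all cells 8 of them were called lower and 3 higher (median -0.11), where 4.75% and 18.2% of genes were. Those lower in the goblet class included Rep15, a RAB15 effector, at 138, 72.5 and 178 CPM in ENR-organoids, 29.8 and 20.7 CPM in -VE-organoids and 2.46, 11.6 and 14.6 CPM in Hyper-organoids (log2 -3.90), the phospholipase Pla2g10, at 41.5, 28.6 and 38.2 CPM, 18.2 and 12.2 CPM and 3.44, 5.03 and 6.76 CPM (-2.95), the kallikrein Klk1 (-2.34) and the chemokine Ccl6 (-2.78). Ccl6 and Rep15 were also called lower in -VE- against ENR-organoids (-3.44 and -2.43), 2 of the 5 genes of this list called there, where 1.14% of genes were called.

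Of 9 transcription factors of the goblet lineage, 1 was called in the goblet class, where 13.3% of genes were, Creb3l4 (-1.13, edgeR adjusted p = 0.000143), at 67.4, 58.2 and 76.6 CPM in ENR-organoids and 32.0, 33.3 and 34.0 CPM in Hyper-organoids. Atoh1, which commits cells to the secretory lineage, stood at 75.0, 67.4 and 104 CPM in ENR-organoids, 89.2 and 70.3 CPM in -VE-organoids and 51.1, 63.2 and 77.7 CPM in Hyper-organoids, with overlap. Against -VE-organoids 1 of the 9 was called, Gfi1 (1.22, edgeR adjusted p = 0.00146), where 9.87% of genes were called. It stood at 29.6, 20.2 and 19.2 CPM in ENR-organoids, 12.9 and 14.1 CPM in -VE-organoids and 35.6, 26.2 and 37.2 CPM in Hyper-organoids, where the ENR- and Hyper-organoids overlapped. Over all cells 0 of the 9 factors were called by edgeR or by DESeq2, with 5 at an unadjusted edgeR p under 0.05 (median 0.15 against -0.01 for all genes), where 22.9% of all genes were called and 9902 of 16037 had such a p.

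Of 25 tested genes for the O-glycans of mucins, 4 were called higher and 2 lower in the goblet class of Hyper-organoids (median -0.31), where 10.7% and 2.64% of all genes were. The core 2 enzyme Gcnt1 was at 0 CPM in the 3 ENR-organoid libraries, at 0.147 and 0.240 CPM in -VE-organoids and at 3.77, 5.82 and 6.76 CPM in Hyper-organoids. The fucosyltransferase Fut2 stood at 10.2, 5.88 and 7.28 CPM, at 5.00 and 6.15 CPM and at 15.4, 23.7 and 33.2 CPM (1.54), and the sialyltransferase St6galnac4 rose by 1.63. St6galnac6, another sialyltransferase, stood at 0.853, 0.196 and 0.291 CPM, at 0 and 0.240 CPM and at 4.42, 5.19 and 2.96 CPM, too few UMIs in ENR-organoids for a fold change. Gcnt1 and St6galnac6 passed the filter on low counts only through the Hyper-organoids, where they are high, so their calls add no support to the count. Those called lower were also sialyltransferases, St3gal6 (-1.07) and St3gal4 (-1.44), the latter at 48.3, 31.7 and 20.1 CPM, at 26.9 and 29.5 CPM and at 14.4, 15.2 and 9.30 CPM. Over all cells 6 genes of this list were higher and 2 lower among 31 tested entries (median 0.19), where 18.2% of genes were called higher and 4.75% lower. The higher ones include Gcnt1 and St6galnac3, at most 0.0224 CPM in ENR-organoids, which passed the filter through the Hyper-organoids.

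Relatives of the members were called lower or not at all in Hyper- against ENR-organoids. In the goblet class 3 of 6 tested (Spink1 at -4.18, Clca3a2 at -2.09 and Clca3a1 at -2.09) were called lower and 0 higher, where 2.64% of genes were called lower and where the enterocyte markers of the class were lower too. In goblet cells of Hyper-organoids Spink1 stood at 0.164, 0.314 and 0.211 CPM and Clca3a2 at 0.983, 1.10 and 1.27 CPM. These 2 genes passed the filter on low counts only through other groups, so their calls carry little weight. Over all cells 4 of 9 were, where 4.75% of genes were, among them Clca3b, at 459, 389 and 272 CPM in ENR-organoids, 322 and 374 CPM in -VE-organoids and 173, 208 and 149 CPM in Hyper-organoids (-1.20). Of the other gel-forming mucins Muc5ac, Muc5b, Muc6 and Muc19, 0 of 4 passed the filter on low counts. Of the membrane mucins 1 of 6 tested was called lower over all cells (Muc20, where 4.75% of genes were) and 1 of 4 in the goblet class (Muc3, where 2.64% were). Muc20 stood at 0.144, 0.106 and 0.0785 CPM in ENR-organoids and 0.0361, 0 and 0.0332 CPM in Hyper-organoids. In the goblet class Muc3 stood at 1.42, 2.35 and 0.291 CPM in ENR-organoids and 0, 0.157 and 0.423 CPM in Hyper-organoids. Both had too few UMIs for a fold change. They passed the filter on low counts only through groups other than the Hyper-organoids, so these calls carry little weight.

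The genes whose levels followed a member most closely over the 53 sums of library and class were named by Pearson's r on log2 CPM, again as a description. For Muc2 they were Tpsg1 (0.959), Ano7, Ern2, Dnajc3 and Guca2a (0.937), and for Clca1 P2rx4 (0.825), Fer1l6, Galnt7, Tsta3 and Ccl6 (0.779). For Spink4 they were the Paneth genes Defa24 (0.969), Lyz1 (0.952) and Defa17, followed by Tpsg1 and Guca2a, where the Defa genes are near-identical copies whose counts are uncertain. For Clca4b they were Ccl25 (0.907), Prss32, Prap1, Slco2b1 and Dmbt1 (0.871), none of which was among those named for Muc2, Clca1 or Spink4.

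In the colon each group was 1 library, so no test was made, and the intervals cover counting error only. The normal library held 1132 kept cells and the DSS library 1933. Over all kept cells 4 of the 10 genes differed by more than 2-fold, where 4.66% of the 12074 genes of at least 1 CPM did, 3.13% higher and 1.53% lower after DSS. Clca1 stood at 1493 CPM in normal and 44.0 CPM in DSS colon, 34.0-fold lower after DSS (95% interval 32.2 to 35.8). Retnlb, hardly read in the organoids, stood at 1394 CPM and 124 CPM, 11.3-fold lower (10.9 to 11.7). Fcgbp stood at 725 CPM and 127 CPM, 5.71-fold lower (5.52 to 5.91).

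Clca4b went the other way, from 2.86 CPM (57 UMIs) to 147 CPM (4769 UMIs), 51.4-fold higher after DSS (39.6 to 68.0). The other 6 genes were within 2-fold over all cells. Muc2 stood at 1611 CPM in normal and 1229 CPM in DSS colon, Agr2 at 1671 CPM and 1539 CPM, and Spink4 at 2460 CPM and 2632 CPM. Tff3 was level at 266 CPM and 268 CPM, Zg16 stood at 557 CPM and 777 CPM, and Spdef at 69.1 CPM and 44.8 CPM.

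The colonic cells carry cluster numbers and no class names, and the goblet genes other than Clca4b were held mainly by clusters 5 and 19. Cluster 5 (83 normal and 150 DSS cells) was led by Spink4, Muc2 and Spdef, and cluster 19 (36 normal and 2 DSS cells) by Clca1, Ang4, Mptx1 and Fcgbp. Cluster 20 (0 normal and 30 DSS cells, at a median of 4006 UMIs) was led by Zg16, Spink1 and Tff3 and held 17.1% of the Clca1, 9.70% of the Zg16, 9.10% of the Tff3 and 8.49% of the Fcgbp UMIs of the DSS library. In the normal colon cluster 19 held 82.2% of the Clca1 UMIs, 90.3% of the Zg16 UMIs, 80.0% of the Fcgbp UMIs and 43.9% of the Retnlb UMIs, at 37060 CPM of Clca1 and 15168 CPM of Zg16. A cluster that comes mostly from 1 library may be that library and not a cell type. Clca1, Fcgbp and Retnlb were lower after DSS over the whole library, where cluster 19 was nearly absent. Zg16 was not, at 557 CPM in normal and 777 CPM in DSS colon. Tff3, with 59.0% of its normal UMIs in cluster 19, was level at 266 CPM and 268 CPM. The part of cluster 19 in these levels was not tested.

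Cluster 5 is present in both libraries, at a median of 21401 and 23112 UMIs per cell, but it held different parts of their goblet gene UMIs. Its share went from 4.57% in the normal library to 71.2% in the DSS library for Zg16, from 15.1% to 55.8% for Clca1, from 14.8% to 61.6% for Fcgbp, from 28.2% to 67.1% for Tff3 and from 54.8% to 94.1% for Retnlb. Cluster 19 held 59.0% of the Tff3 UMIs of the normal library and 5.90% of those of the DSS library. Ratios within cluster 5 therefore compare different parts of the cells that hold these genes. Within it the same direction held for Clca1 (2660 CPM in normal and 230 CPM in DSS cells, 11.6-fold lower, 10.7 to 12.5) and Retnlb (8993 CPM and 1092 CPM, 8.24-fold lower, 7.95 to 8.54). Zg16 was the reverse, at 299 CPM and 5197 CPM, 17.4-fold higher in DSS cells (15.9 to 19.02). Of genes of at least 1 CPM in this cluster 9.28% differed by more than 2-fold, 6.00% higher and 3.28% lower in DSS cells. Clca4b was at 0 UMIs in normal and 66 UMIs in DSS cells of cluster 5, at least 10.8-fold higher against the 3 UMIs that a count of 0 allows in the cluster, while the 95% counting interval of the ratio starts at 8.53-fold. Tff3 was 1.91-fold higher (1.80 to 2.02) and level over all cells, while Muc2 (12184 CPM and 9791 CPM), Agr2 (13785 CPM and 9900.5 CPM), Fcgbp (1258 CPM and 734 CPM), Spdef (661 CPM and 372 CPM) and Spink4 (19361 CPM and 22605 CPM) were within 2-fold.

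In the DSS colon Clca4b was held by other cells than the rest. Clusters 7 (139 DSS cells, led by Atp12a, Tgm3 and Saa1) and 9 (108 DSS cells, led by Ido1, Clu and Prss22) carried 1015 CPM and 733 CPM of it and together held most of the library's Clca4b UMIs, 46.4% and 39.3%. These clusters had 8 and 2 cells in the normal library. There, 46 of the 57 Clca4b UMIs lay in cluster 3, which held 274 normal cells and 1 DSS cell. In clusters 0 and 11 most cells held the leukocyte gene Ptprc, at a median of 3040 to 3924 UMIs per cell, far shallower than cluster 5, so that CPM of free RNA cannot be compared between them. They held 50.0 and 71.1 CPM of Muc2 in normal and 202 and 135 CPM in DSS cells, and 0 CPM of Clca4b in normal and 21.3 and 10.8 CPM in DSS cells. Clca4b stood at 19.1 CPM in cluster 5 after DSS, and the part of free RNA in it was not tested.

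**Figure D5:**
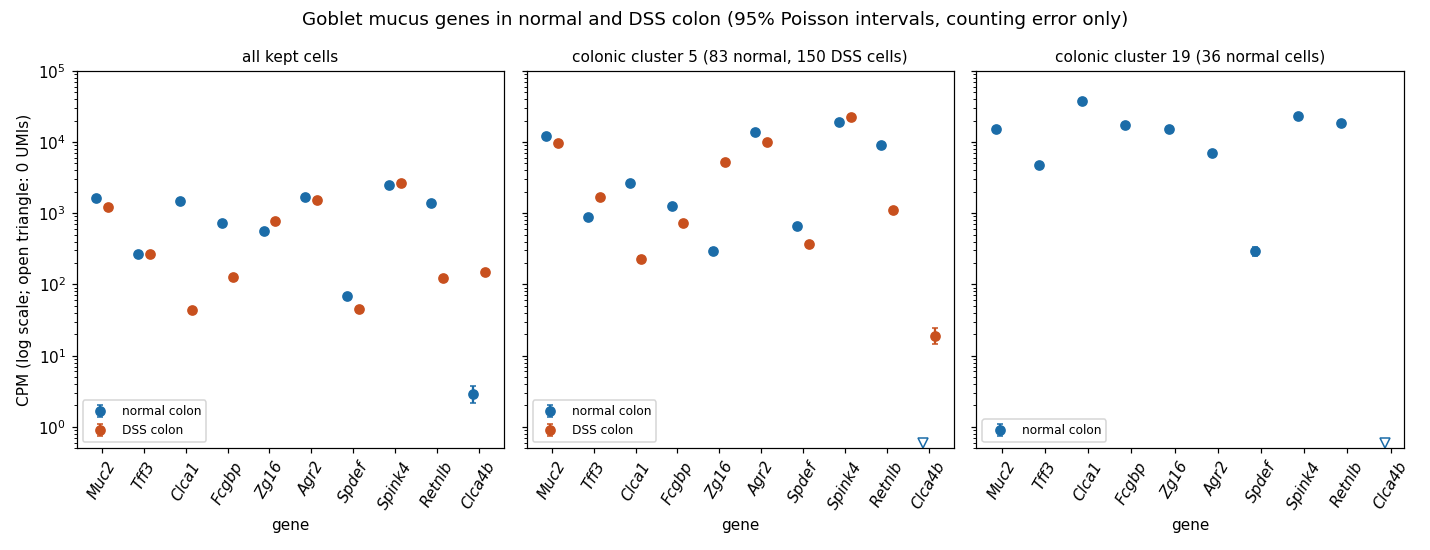
CPM of each gene in normal and DSS colon on a log scale, over all kept cells, within cluster 5 and, for the normal library, within cluster 19, with 95% Poisson intervals that cover counting error only; an open triangle marks 0 UMIs. Clca1 and Retnlb are lower after DSS over all cells and within cluster 5, Clca4b is higher, and Zg16 is within 2-fold over all cells but higher after DSS within cluster 5, the cluster that held 4.57% of the Zg16 UMIs of the normal library.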

How the data were processed

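Single-cell RNA-seq was made from 8 organoid and 2 colonic crypt libraries. The authors deposited whole-number UMI counts per gene and cell, aligned to mm10, with Cell Ranger (3.1.0 in the matrix headers, 3.0.0 in the submitters' notes) and Seurat 3.1.4, and a table naming the kept cells with their class or cluster. Groups were taken from the sample labels. UMIs of the kept cells were summed per library, and per library and class, and tested with edgeR's quasi-likelihood test (edgeR 4.0.16, R 4.3.3) after filterByExpr (minimum count 10, minimum total 15) and TMM scaling, with the 3 organoid groups in one fit. The difference between the goblet class and the other cells was tested with limma 3.58.1 on log2 CPM (prior count 2). DESeq2 1.42.0, other filters and scalings, cells with at least 1500 genes, thinned cells, left-out libraries and a replicate block were alternatives. Genes were called at an adjusted p under 0.05 and at least 2-fold. Library totals were 19906845 to 170019527 UMIs, and intervals and floors cover counting error only. No doublet caller was run, but the 5% of cells with the most UMIs were left out in an alternative. Tests were checked on simulated data with one fixed spread for all genes. For Hyper- against ENR-organoids edgeR recovered 63.5% of genes changed 2-fold over all cells and 43.5% in the goblet class. Of genes changed 4-fold it recovered 100% in both. A gene that was not called may thus still have changed 2-fold.

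The 10 genes and the further lists were chosen with earlier results of these data known. All 10 genes are named, with up to 4 called genes of each further list and the 5 genes most alike to Muc2, Clca1, Spink4 and Clca4b. Retnlb did not pass the filter. Culture series was read from the number or letter that library names share, and the labels do not say what it marks. It paired the libraries of Hyper- and ENR-organoids. The deviations of same-numbered libraries from their group means correlated at 0.192, 0.170 and 0.436 over 16037 genes. Those of unlike numbers correlated at -0.292 to 0.129. The highest value, 0.436, belongs to replicate 3, whose libraries came from primary crypts.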

Additional observations from a re-analysis of the deposited data

Results flagged for a closer look

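The change of Spink4 between Hyper- and ENR-organoids differed between the goblet class and all other kept cells by 1.54 on the log2 scale (limma adjusted p = 0.0154), a tested difference between groups of cells. Spink4 was the one gene called of the 5 tested that did not name the class, where 5.51% of all genes were called. The other kept cells include Paneth cells, which carry Spink4 strongly and were fewer in Hyper-organoids. In such sums fewer Paneth cells and less Spink4 per cell cannot be told apart.

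Clca4b was also read in the barcodes that the authors did not keep, which no comparison here used. Its CPM in those barcodes was 1.06 to 1.62 times that in the kept cells, and above 1 in all 10 libraries. The ratios of the Hyper-organoids and the normal colon rest on 61, 65, 58 and 46 UMIs in those barcodes. No counting interval was made for these ratios. The median share of mitochondrial UMIs in these barcodes was 40.8% to 60.7%, against 7.40% to 10.0% in the kept cells.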

How the results depend on the processing

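Over all cells the number of genes called between Hyper- and ENR-organoids went from 3 to 5 without the goblet class (Muc2 and Agr2, which named the class, among them). Between Hyper- and -VE-organoids it went from 2 to 4 without the goblet class (Muc2 among them), to 4 with the replicate block (Muc2 at -1.85, adjusted p = 0.0178, and Zg16 at -4.43, adjusted p = 0.0398, were gained) and to 1 in the enteroendocrine class only (Clca4b, from 3 UMIs in Hyper-organoids), and it was 1 to 4 when one library was left out. Between -VE- and ENR-organoids it went from 0 to 1 in the stem class only and to 1 in the enteroendocrine class only. In the goblet class it went from 1 to 3 without a filter on low counts, to 3 with the replicate block and to 2 in cells thinned to 10000 UMIs (Hyper- against ENR-organoids), with 1 to 3 when one library was left out. For Hyper- against -VE-organoids it went from 1 to 2 without the filter and to 2 with the replicate block (Zg16 at -3.87, adjusted p = 0.0494, was gained), and for -VE- against ENR-organoids from 1 to 3 without the filter and 0 to 1 when one library was left out. Calls without the filter were not relied on. The difference in the share of goblet cells turned to -0.885 points with goblet cells taken by the naming genes, whose own levels differed between the groups.

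Some directions turned for Hyper- against ENR-organoids over all cells. In the enteroendocrine class only the log2 fold changes were 1.55 for Muc2, 1.00 for Tff3, 0.43 for Fcgbp, 1.37 for Spdef and 2.73 for Spink4, and Fcgbp was at 0.21 against -VE-organoids. The Spdef value there rests on 5 UMIs in each ENR-organoid library. Spdef was at 0.013 with plain library sizes, 0.22 in the stem class and 0.72 in the transit amplifying class. For the difference between goblet and other cells, leaving out one library gave -3.37 to 0.70 for Zg16, -0.00071 to 0.30 for Spdef and -0.69 to 0.28 for Clca4b. The cause of these shifts was not tested. With only 2 shared series the block for comparisons with -VE-organoids rests on a number, where same-numbered libraries correlated at 0.161 and 0.0617 with ENR- and at 0.139 and 0.115 with Hyper-organoids. Of the single-gene values, 538 were labelled the same, 22 weaker, 18 stronger, 24 moved and 12 reversed, by rules that differed between measures. For tested fold changes the same meant an equal sign and an equal call. For naming genes in fits of the goblet class it meant a value within the SE of the main value. For shares of cells it meant an equal sign only, and for colonic ratios a value inside the counting interval, widened to the main value.

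Counts over all genes moved too. With at least 10 CPM in 2 libraries they went from 3675 to 800, 2985 to 528 and 409 to 166 over all cells and from 1563 to 648 and 1156 to 443 in the goblet class. Thinning gave 801 and 563 in the goblet class, and no filter gave 351 against 133 for -VE- against ENR-organoids. For that comparison, leaving out one library gave as few as 96 over all cells and 11 in the goblet class, both without -VE replicate 2. In the enteroendocrine class only they were 818, 443 and 21. For the difference between goblet and other cells, 646 went to 428 without Hyper replicate 3 and 181 to 52 with a prior count of 0.5.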
